A study of Mus musculus with 6 samples.

Results

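The genes described here are 38 that break down, interconvert or regulate sphingolipids, out of 47643 genes in the deposited table, found by their symbols. They comprise 5 regulators of serine palmitoyltransferase, 7 sphingomyelinases and relatives, 5 ceramidases, 3 sphingomyelin synthases and relatives, 4 glycosphingolipid synthases, 6 enzymes of ceramide phosphate and sphingosine phosphate, and 8 genes of glycosphingolipid breakdown. All 38 had a row in the table. Of these, 37 passed the filter on low counts and were tested, and Ugt8a, which makes galactosylceramide, did not, with 0, 1 and 1 counts in the Myc-deleted libraries and 0 in each control library. Sptssb passed it through the Myc-deleted libraries, since it stood near the minimum in the controls.

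Messenger RNA was sequenced in 6 intestinal samples of male C57BL/6 mice of 7 to 8 weeks. The 3 Myc-deleted samples have the genotype MycΔIE, ERT2, read here as inducible loss of Myc from intestinal epithelium, and the 3 controls have Mycfl/fl, the floxed gene. Both groups received tamoxifen by injection and ate food with 60% fat for 2 weeks. The labels name neither the promoter of the inducible recombinase nor whether the controls carry it, so an effect of the recombinase and one of losing Myc cannot be told apart.

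Sphingolipids are built on a sphingoid base that serine palmitoyltransferase makes, and ceramide is their hub. Ceramide can take up a phosphocholine headgroup and become sphingomyelin, take up sugars and become a glycosphingolipid, or lose its fatty acid to a ceramidase and release sphingosine. Sphingosine kinases phosphorylate sphingosine, phosphatases reverse that step, and a lyase cleaves sphingosine phosphate for good, which is the exit from the pathway. In the small intestine, sphingomyelin of food is digested at the brush border by an alkaline sphingomyelinase and a neutral ceramidase, while cells recycle their own sphingolipids in lysosomes.

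The libraries held 9956938 to 11328693 expected counts, and 3 counts corresponded to 0.259 to 0.306 CPM (TMM-scaled counts per 1e+06), the unit of every level below unless stated per kb. The labels do not say how the samples were processed together, so p-values measure the spread between these samples, which may be technical in part. The extraction protocol names liver whereas the tissue label names intestine. Vil1, the microvillus protein villin, stood at 4214 ± 190.4 CPM in Myc-deleted and 4158 ± 332 CPM in control libraries (SD, n = 3 each). The 6 hepatocyte markers were low: Tat averaged 11.7 CPM in Myc-deleted and 32.2 CPM in control libraries, albumin (Alb) 0.582 and 2.61 CPM, Ttr 1.97 and 1.59 CPM, Apoh 0.922 and 0.784 CPM, Serpina1a 0.613 and 0.442 CPM, and Cyp2e1 0 and 0.169 CPM. Myc had 36, 47 and 63 counts in the Myc-deleted libraries and 59, 70 and 59 in the controls, a difference that did not pass the test (edgeR adjusted p = 0.318). Myc-deleted library 3, at 5.81 CPM, lay close to the lowest control at 5.86 CPM, so the level of Myc hardly separates it from the controls. The summed level of 6 smooth muscle markers was 15.9 to 20.7 CPM in Myc-deleted and 17.1 to 91.8 CPM in control libraries, and control library 2 alone made up the upper end, since the other two controls had 28.7 and 17.1 CPM.

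In the Myc-deleted intestine 7 of the 37 tested genes rose and 5 fell, by the edgeR quasi-likelihood test with p adjusted by Benjamini-Hochberg across 12720 genes and a threshold of 0.05. That is 32.4% of the tested genes of the group, against 7.95% of all tested genes. The genes were listed with earlier results of these data known, so this contrast is a description and not evidence of an excess. Ormdl3, Smpd3, Enpp7, Asah2, B4galt5, B4galt6 and Sgpl1 rose, where 4.22% of all tested genes did. Acer1, Sgpp1, Sgpp2, Psap and Arsa fell, where 3.73% of all tested genes did. The median log2 fold change of Myc-deleted over control was 0.06 over the 37 genes, beside -0.0021 over all tested genes, with 20 positive and 17 negative values. The median size of the log2 fold change, without its sign, was 0.26 over these genes and 0.17 over all tested genes. The libraries of the 2 groups did not overlap for 19 of the 37 genes, 10 with the Myc-deleted libraries on top and 9 with the controls on top, where 27.8% of all tested genes did not overlap. The 10 include Sptssb, which passed the low-count filter only through the Myc-deleted libraries.

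The calls of Enpp7, Asah2, B4galt5, B4galt6 and Acer1 held in each of the 14 alternative analyses, whereas each of the other 7 genes lost its call without at least 1 of the libraries. Leaving out 1 library at a time gave 4 to 7 risers and 1 to 4 fallers. The lowest counts, 4 risers and 1 faller, came without Myc-deleted library 2 and without control library 2. Without control library 1 there were 5 risers and 1 faller, and without Myc-deleted library 3 or control library 3 there were 3 fallers.

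**Figure D1:**
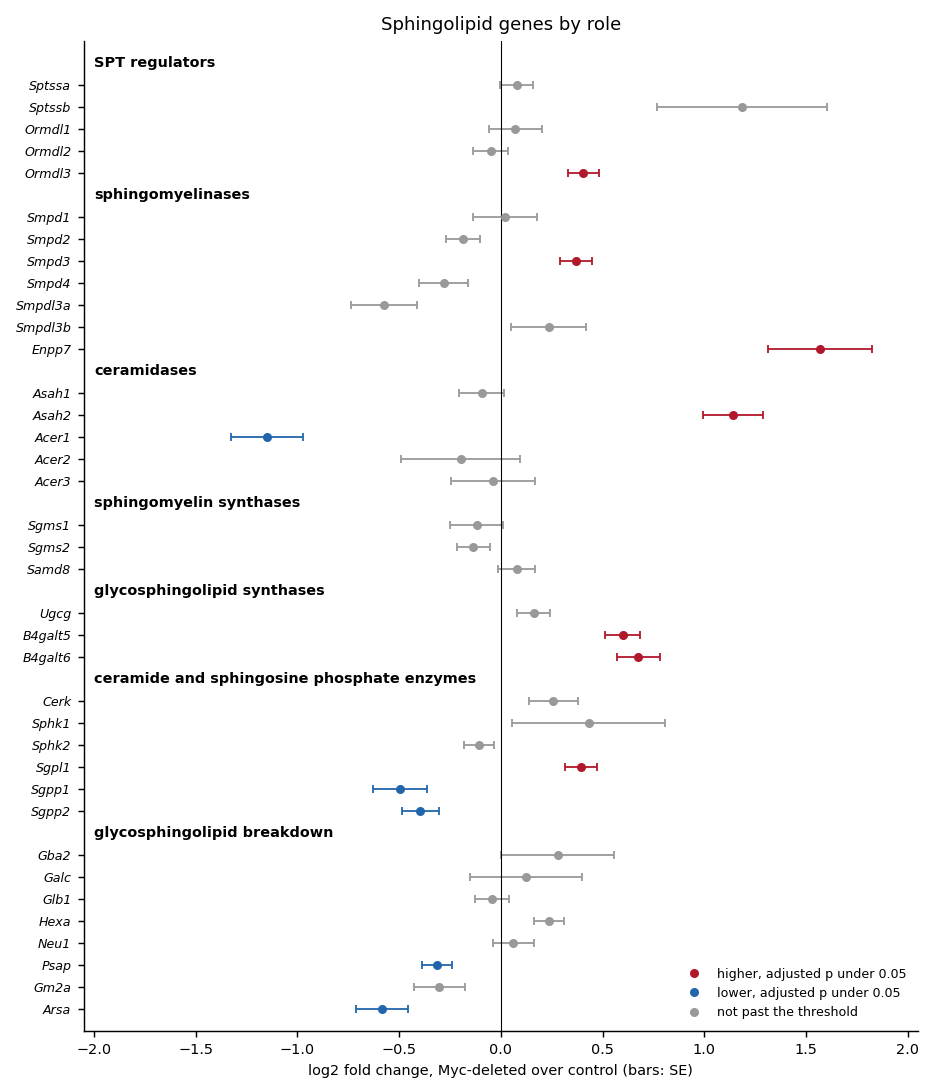
Log2 fold change of Myc-deleted over control (horizontal axis, points, with SE bars) for the 37 tested genes, grouped by role. Red points rose and blue points fell at an adjusted p under 0.05, and grey points did not pass. The widest spread is among the sphingomyelinases and ceramidases, with Enpp7 at 1.57 and Acer1 at -1.15.

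The upstream sequences of 6 of the genes that passed the test are shown because they include 4 of the 5 most stable calls and the 2 called genes whose window holds the motif CACGTG, the E-box that Myc with its partner Max is known to bind. The windows are from RefSeq (GRCm38.p6), run 250 bases up to the annotated start, are read in the direction of the gene, and have CACGTG in capitals. The RefSeq start of Asah2 lies inside the longer gene given below:
Enpp7 (chr11:118987931-118988180, plus strand): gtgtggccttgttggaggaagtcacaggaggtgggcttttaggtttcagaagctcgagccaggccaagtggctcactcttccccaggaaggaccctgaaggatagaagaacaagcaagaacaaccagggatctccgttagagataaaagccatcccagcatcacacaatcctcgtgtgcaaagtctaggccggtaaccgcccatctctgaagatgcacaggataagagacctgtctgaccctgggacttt
Asah2 (chr19:32103141-32103390, minus strand): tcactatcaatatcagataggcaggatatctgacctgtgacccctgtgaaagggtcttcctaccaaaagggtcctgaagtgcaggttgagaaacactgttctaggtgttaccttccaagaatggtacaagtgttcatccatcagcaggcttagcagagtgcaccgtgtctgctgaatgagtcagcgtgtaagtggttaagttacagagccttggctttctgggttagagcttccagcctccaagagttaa
B4galt5 (chr2:167349179-167349428, minus strand): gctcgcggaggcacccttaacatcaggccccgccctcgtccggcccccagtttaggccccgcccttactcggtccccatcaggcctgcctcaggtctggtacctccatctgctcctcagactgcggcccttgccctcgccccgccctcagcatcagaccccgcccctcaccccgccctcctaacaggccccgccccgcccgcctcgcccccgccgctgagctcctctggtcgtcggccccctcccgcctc
Acer1 (chr17:56982127-56982376, minus strand): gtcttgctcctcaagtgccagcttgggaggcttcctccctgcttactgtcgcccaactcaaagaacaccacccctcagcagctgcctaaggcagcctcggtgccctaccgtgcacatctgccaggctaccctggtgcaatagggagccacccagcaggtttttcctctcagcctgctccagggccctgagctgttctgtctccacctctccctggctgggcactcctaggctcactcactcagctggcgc
Sgpp2 (chr1:78310096-78310345, plus strand): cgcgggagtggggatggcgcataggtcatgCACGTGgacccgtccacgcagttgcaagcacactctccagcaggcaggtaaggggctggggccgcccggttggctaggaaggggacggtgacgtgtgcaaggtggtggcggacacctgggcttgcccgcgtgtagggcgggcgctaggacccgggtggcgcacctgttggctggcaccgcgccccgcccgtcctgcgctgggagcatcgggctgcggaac
Arsa (chr15:89477425-89477674, minus strand): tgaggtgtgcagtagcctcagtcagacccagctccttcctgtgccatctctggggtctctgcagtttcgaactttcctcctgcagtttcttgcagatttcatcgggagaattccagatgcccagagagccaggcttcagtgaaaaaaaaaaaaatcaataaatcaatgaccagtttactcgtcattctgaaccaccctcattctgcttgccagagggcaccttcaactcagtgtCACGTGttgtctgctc

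CACGTG, which reads the same on both strands, was searched in windows of 250 bases before to 50 after each start. Of 34 genes of the group with a window, 7 held it (Arsa, Glb1, Sgms2, Sgpp2, Smpd2, Smpdl3b and Sphk1), in 8 of 50 windows or 16.0%, against 7.15% of all 32851 windows. Of these 8, 2 are windows of Sphk1 that start 7 bases apart and hold the same single CACGTG, which is thus counted 2 times in the 16.0%. The motif began 16 bases before the start of Arsa and 220 bases before that of Sgpp2. Among the called genes with a window it was in 0 of 5 that rose and in 2 of 5 that fell. The longer form TCACGTGA, which contains CACGTG and is known from lysosomal genes, was in 0 of the 50 windows and in 0.97% of all windows. Asah1, B4galt6, Smpd3 and Smpdl3a had no window in the table. The shares were not matched for base composition. All windows had a median of 52.7% G and C, and windows of the group ran from 39.0% (Sgms2) to 81.3% (Ugcg). A match in these letters is a description and not a binding site.

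The 2 largest rises that passed were those of the brush border enzymes that digest dietary sphingomyelin. Enpp7, the alkaline sphingomyelinase (ENSMUSG00000046697.16, chromosome 11, 118988188 to 118993221, GRCm38), stood at 167, 219.8 and 152 CPM in the Myc-deleted libraries and 49.0, 42.0 and 90.7 CPM in the controls. Every Myc-deleted library lay above every control, although control library 3 was well above the other controls. The rise was 2.97-fold (log2 fold change 1.57 ± 0.26 SE, as for every ± beside a log2 fold change below, edgeR adjusted p = 0.00578, and 0.00134 to 0.0278 with 1 library left out). Asah2, the neutral ceramidase that takes the ceramide onward to sphingosine (ENSMUSG00000024887.9, chromosome 19, 31982597 to 32108211), had 120.4, 183 and 139 CPM in the Myc-deleted libraries and 67.2, 59.6 and 74.1 CPM in the controls. The groups did not overlap, and Myc-deleted library 2 was again the highest. Asah2 rose 2.21-fold (1.14 ± 0.15, adjusted p = 0.00193).

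Enterocytes carry both enzymes on their brush border, and some of their markers differed between the groups. The summed level of the 16 enterocyte markers was 59907, 64398 and 58840 CPM in Myc-deleted libraries 1 to 3 and 50366, 46808 and 55968 CPM in control libraries 1 to 3, so the groups did not overlap. A second sum left out Fabp2 and Apoa1, abundant markers that are among the 3 that rose, picked once their values were known. Anpep, at 14011 CPM in Myc-deleted and 15151 CPM in control libraries, stayed in. That sum was 39301, 39679 and 37747 CPM in Myc-deleted and 35469, 34017 and 40872 CPM in control libraries. The groups then overlapped with control library 3 on top, an outcome that this choice favoured. Of the 16 markers, 13 had a positive fold change, 3 rose (Fabp2, Apoa1 and Lct), 0 fell and 13 did not pass, and for 5 of the 16 the groups did not overlap, beside 27.8% of all tested genes. Relative to the control mean the marker sum was 1.15 to 1.26 in the Myc-deleted libraries, while Enpp7 was at 2.50 to 3.63 and Asah2 at 1.80 to 2.73. Abundant markers weigh most in this sum. Single markers varied more widely, with log2 fold changes from -0.11 to 3.15 and a median of 0.23. The 3 that rose did so 8.90-fold (Lct, at 2.14 CPM in the controls), 1.86-fold (Fabp2) and 1.40-fold (Apoa1). Within each group the library with the highest marker sum was also the highest for most of the 7 genes that rose: Myc-deleted library 2 for 6 of them and control library 3 for 6 of them. These genes were measured in the same libraries and are not separate observations. The share of all tested genes that were highest in these libraries was not determined. The sums of other lists also did not overlap: 3 of 8 enteroendocrine markers rose (sums of 215 to 273 CPM in Myc-deleted and 160.5 to 182 CPM in control libraries), 2 of 4 tested hepatocyte markers fell (8.17 to 20.02 and 29.4 to 46.7 CPM) and both tested erythrocyte markers fell (7.84 to 10.2 and 15.1 to 18.3 CPM). The enteric neuron and glia list, nearly all of it Ret, summed to 16.3 to 22.5 CPM in Myc-deleted and 13.3 to 13.8 CPM in control libraries. Of the crypt markers, whose sums overlapped, Rnf43 rose (log2 fold change 0.82, edgeR adjusted p = 0.00208), while Olfm4 and Smoc2 lay below the controls in every Myc-deleted library without passing (adjusted p = 0.0738 and 0.0783). Summed pancreatic acinar markers, of which 3 of 5 were at 0, stood at 6.77 to 7.99 CPM in Myc-deleted and 3.38 to 3.47 CPM in control libraries. The part of these markers in the results was not tested. In such bulk libraries more cells of a type and more RNA per cell cannot be told apart.

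**Figure D2:**
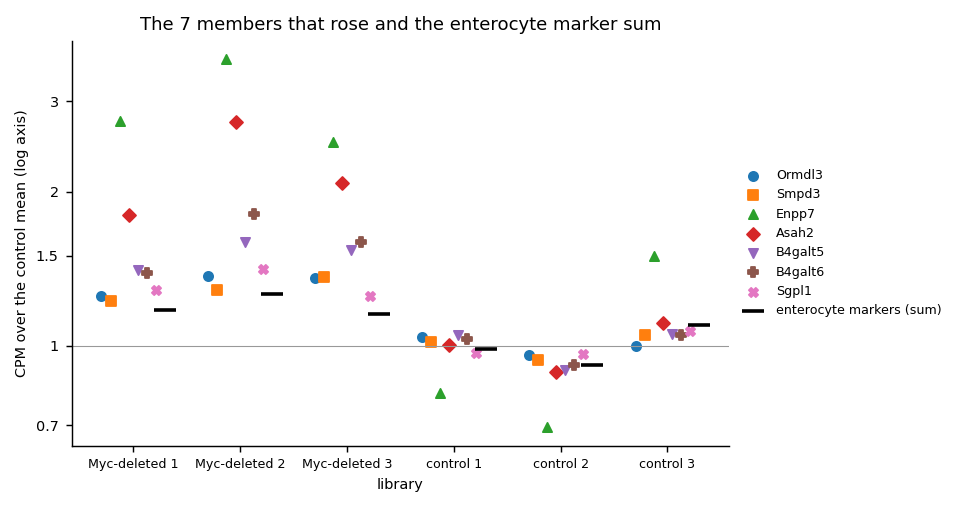
Level of the 7 genes that rose and of the summed enterocyte markers in each library, divided by the control mean (vertical axis, log scale; horizontal axis, library). Enpp7 and Asah2 lie furthest from the marker sum in all 3 Myc-deleted libraries, and Sgpl1, Ormdl3 and Smpd3 lie nearest to it. Abundant markers weigh most in the sum, and single markers, some of which rose more, are not shown.

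Of the other 4 ceramidases, Acer1 fell and 3 did not pass. Acer1, an alkaline ceramidase of the endoplasmic reticulum (ENSMUSG00000045019.4, chromosome 17, 56953490 to 56982126), stood at 6.59, 7.24 and 4.80 CPM in the Myc-deleted libraries and 15.3, 14.004 and 12.1 CPM in the controls. It had 52 to 78 counts in the Myc-deleted libraries and 118 to 162 in the controls, with no overlap. It was 2.22-fold lower (log2 fold change -1.15 ± 0.17, edgeR adjusted p = 0.00402, and 0.0080 to 0.0223 with 1 library left out). Asah1, the acid ceramidase of lysosomes, stood at 77.8 ± 11.6 CPM in Myc-deleted and 83.1 ± 4.78 CPM in control libraries (SD, n = 3 each; -0.10 ± 0.11, adjusted p = 0.672). Acer2, the alkaline ceramidase of the Golgi, stood at 3.05 ± 0.990 CPM in Myc-deleted and 3.49 ± 0.613 CPM in control libraries, and Acer3, its relative for unsaturated ceramides, at 6.20 ± 1.37 CPM in Myc-deleted and 6.35 ± 0.821 CPM in control libraries. The 95% intervals of their log2 fold changes ran from -0.85 to 0.46 for Acer2 and from -0.50 to 0.43 for Acer3.

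Per kb of exon, the ratio of Asah2 to Asah1 was 0.425, 0.826 and 0.471 in the Myc-deleted libraries and 0.248, 0.197 and 0.263 in the controls. The ratio of Acer1 to Asah1 was 0.111, 0.157 and 0.0776 in the Myc-deleted libraries and 0.270, 0.221 and 0.205 in the controls. Relative to the lysosomal enzyme, the brush border ceramidase was thus higher and the reticular ceramidase lower in all 3 Myc-deleted libraries. These ratios do not depend on the scaling of the libraries and were not tested.

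Among the sphingomyelinases of cells, Smpd3 rose and 5 genes did not pass. Smpd3, the neutral sphingomyelinase of the plasma membrane and Golgi (ENSMUSG00000031906.8, chromosome 8, 106252548 to 106337988), had 123, 129.7 and 137 CPM in the Myc-deleted libraries and 102, 94.5 and 106 CPM in the controls, with no overlap. The rise was 1.29-fold (0.37 ± 0.08, edgeR adjusted p = 0.0200), and the adjusted p was 0.0768 and 0.0647 without Myc-deleted library 2 or 3 and 0.0638 and 0.117 without control library 1 or 2. Smpdl3a, a secreted phosphodiesterase that resembles acid sphingomyelinase, stood at 105, 73.4 and 117 CPM in the Myc-deleted libraries and 126, 170.2 and 142 CPM in the controls. The groups did not overlap, but the difference did not pass (-0.57 ± 0.16, adjusted p = 0.0636). It did pass under other settings, with adjusted p of 0.00427 in DESeq2, 0.00609 with no low-count filter, 0.0362 when Myc-deleted library 3 was left out and 0.0466 when libraries were scaled by their upper quartile. Leaving out 1 library at a time gave 0.0362 to 0.217. Its membrane-anchored relative Smpdl3b had 53.7 ± 12.1 CPM in Myc-deleted and 45.7 ± 10.7 CPM in control libraries (0.23 ± 0.18, adjusted p = 0.503). The ratio of Smpdl3b to Smpdl3a per kb was 0.491 to 0.616 in the Myc-deleted libraries and 0.245 to 0.421 in the controls.

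Smpd2, a neutral sphingomyelinase of the endoplasmic reticulum, stood at 49.4 ± 3.37 CPM in Myc-deleted and 56.2 ± 2.25 CPM in control libraries, and the Myc-deleted libraries were all beneath the controls. The same held for Smpd4, another neutral sphingomyelinase, at 10.4 ± 0.753 CPM in Myc-deleted and 12.6 ± 0.580 CPM in control libraries. Neither passed the test (adjusted p = 0.221 and 0.207). Smpd1, the acid sphingomyelinase of lysosomes, stood at 13.5 ± 1.72 CPM in Myc-deleted and 13.3 ± 2.33 CPM in control libraries (0.02 ± 0.16, adjusted p = 0.957). The sign of its fold change was negative in 4 of the 14 alternatives.

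Both genes of lactosylceramide synthesis rose. B4galt5 and B4galt6 encode the galactosyltransferases that turn glucosylceramide into lactosylceramide. B4galt5 (ENSMUSG00000017929.13, chromosome 2, 167298444 to 167349183) had 199, 225 and 218 CPM in the Myc-deleted libraries and 148, 127 and 149 CPM in the controls. B4galt6 (ENSMUSG00000056124.5, chromosome 18, 20684599 to 20746404) had 191, 249 and 219 CPM in the Myc-deleted libraries and 142, 126 and 145 CPM in the controls. For each gene all Myc-deleted libraries lay above all controls, and control library 2 was the lowest. B4galt5 rose 1.51-fold (0.60 ± 0.09, edgeR adjusted p = 0.00342) and B4galt6 1.60-fold (0.68 ± 0.10, adjusted p = 0.00441), and neither lost its call in any of the 14 alternatives. The ratio of B4galt6 to B4galt5 per kb was 0.711 to 0.821 in the Myc-deleted libraries and 0.711 to 0.737 in the controls, so the groups overlapped in this ratio while both levels were higher.

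Ugcg, which starts the route by adding glucose to ceramide, stood at 163, 147 and 136 CPM in the Myc-deleted libraries and 135, 131 and 134 CPM in the controls. Every Myc-deleted library was above every control, but the difference did not pass (0.16 ± 0.08, adjusted p = 0.291). Per kb, the ratio of B4galt5 to Ugcg was 1.47 to 1.93 in the Myc-deleted libraries and 1.17 to 1.35 in the controls. B4galnt1, a ganglioside synthase downstream of lactosylceramide that is not among the 38 genes, had 317, 375 and 354 CPM in the Myc-deleted libraries and 243, 248 and 249 CPM in the controls. It rose 1.41-fold (0.50 ± 0.08, adjusted p = 0.00543).

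**Figure D3:**
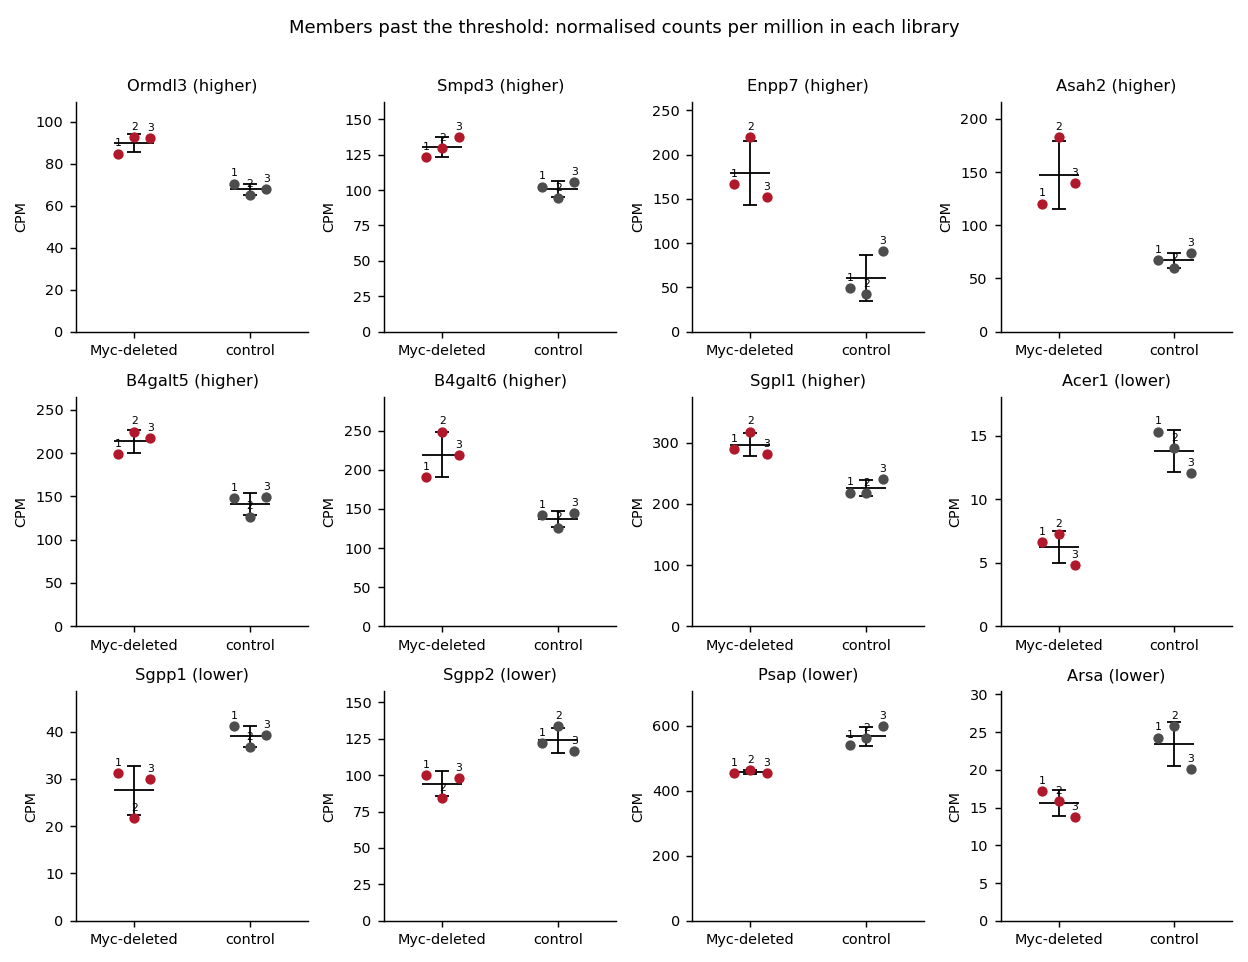
Normalised level (CPM, vertical axes from 0) of the 12 genes that passed the test in each library, with Myc-deleted libraries in red on the left and controls in grey on the right. Numbers mark the library, and bars show the mean and SD (n = 3). In all 12 panels the groups do not overlap, beside 27.8% of all tested genes, but these genes were chosen by the test on the same libraries.

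The enzymes around sphingosine phosphate differed in opposite directions. Sgpl1, the lyase that cleaves it irreversibly (ENSMUSG00000020097.14, chromosome 10, 61098642 to 61147703), had 290.1, 318 and 282 CPM in the Myc-deleted libraries and 219, 217 and 241 CPM in the controls. It rose 1.31-fold (0.39 ± 0.08, edgeR adjusted p = 0.0157), with adjusted p = 0.0788 without Myc-deleted library 2 and 0.0678 and 0.0977 without control library 1 or 2. Both phosphatases that return sphingosine phosphate to sphingosine fell. Sgpp2 (ENSMUSG00000032908.9, chromosome 1, 78310345 to 78420289), the more abundant of them, had 100.3, 84.2 and 98.1 CPM in the Myc-deleted libraries and 122, 134 and 117 CPM in the controls. It was 1.32-fold lower (-0.40 ± 0.09, adjusted p = 0.0268), with adjusted p = 0.0930 without Myc-deleted library 2 and 0.0712 and 0.114 without control library 1 or 2.

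Sgpp1 (ENSMUSG00000021054.5, chromosome 12, 75714249 to 75735729) had 31.2, 21.6 and 30.0 CPM in the Myc-deleted libraries and 41.1, 36.7 and 39.2 CPM in the controls. The groups did not overlap, and Myc-deleted library 2 was the lowest. Sgpp1 was 1.41-fold lower and passed narrowly (-0.50 ± 0.13, adjusted p = 0.0488). Its call was lost in 5 of the 6 leave-one-out runs, at 0.0898 and 0.0566 without Myc-deleted library 2 or 3 and at 0.142, 0.100 and 0.114 without control library 1, 2 or 3.

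The lyase and the phosphatases compete for the same substrate, and the lyase stood higher relative to each phosphatase in every Myc-deleted library than in every control. Per kb, Sgpl1 over Sgpp2 was 1.88, 2.46 and 1.87 in the Myc-deleted libraries and 1.17, 1.06 and 1.35 in the controls. Sgpl1 over Sgpp1 was 8.55, 13.5 and 8.65 in the Myc-deleted libraries and 4.89, 5.45 and 5.66 in the controls. The ratio of the phosphatases to each other, Sgpp2 over Sgpp1, overlapped between the groups at 4.54 to 5.49 in Myc-deleted and 4.18 to 5.14 in control libraries. These ratios were chosen after the levels were seen and were not tested.

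The kinases that make sphingosine phosphate did not pass. Sphk2 stood at 81.4 ± 2.96 CPM in Myc-deleted and 87.6 ± 4.04 CPM in control libraries (-0.11 ± 0.07, adjusted p = 0.449). Its Myc-deleted libraries, at 78.0 to 83.4 CPM, were all beneath its controls, at 85.1 to 92.2 CPM. Sphk1 had 9 to 30 counts per library and stood at 2.09 ± 0.631 CPM in Myc-deleted and 1.53 ± 0.580 CPM in control libraries, and the 95% interval of its log2 fold change ran from -0.41 to 1.27. Cerk, which phosphorylates ceramide, stood at 46.3 ± 7.26 CPM in Myc-deleted and 38.7 ± 3.09 CPM in control libraries (0.26 ± 0.12, adjusted p = 0.245).

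**Figure D4:**
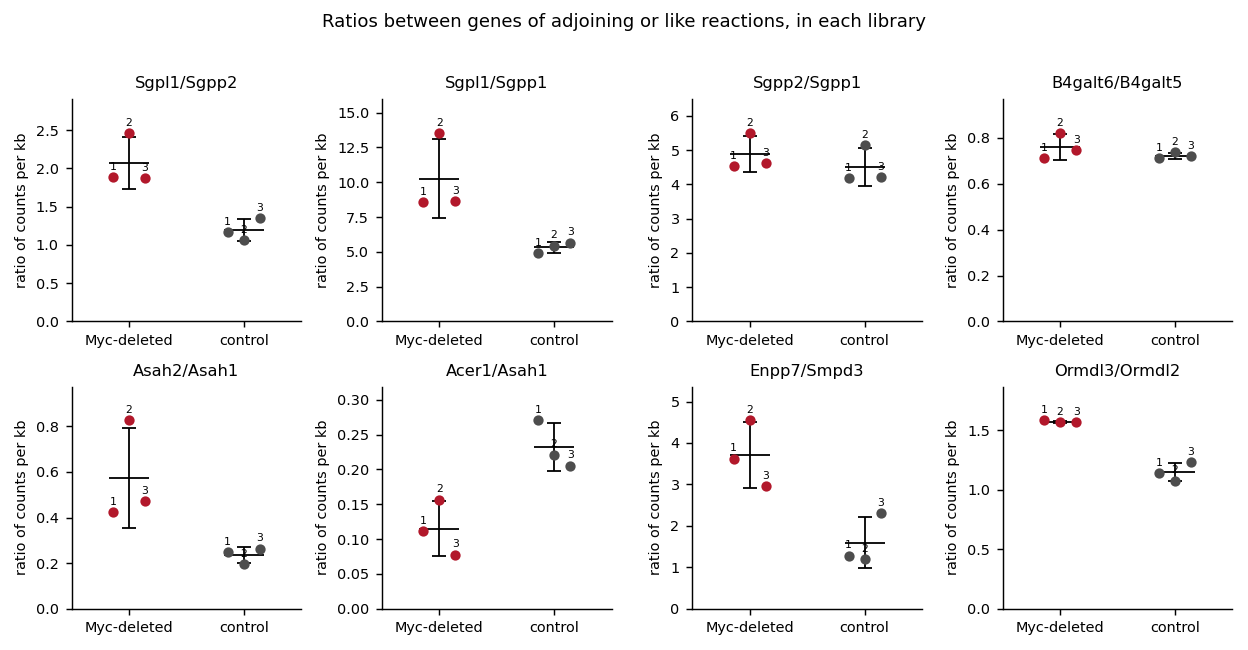
Ratios of counts per kb of exon between named genes (vertical axes from 0) in each library, with Myc-deleted libraries in red on the left and controls in grey on the right, and with mean and SD (n = 3). The groups are apart in 6 panels, among them Sgpl1 over Sgpp2, and overlap for Sgpp2/Sgpp1 and B4galt6/B4galt5. The pairs were chosen after the levels were seen. Each includes a gene that passed the test, so the separation is no further support.

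Among the regulators of serine palmitoyltransferase, Ormdl3 rose and 4 genes did not pass. Ormdl proteins restrain the enzyme when ceramide is plentiful. Ormdl3 (ENSMUSG00000038150.7, chromosome 11, 98581256 to 98587368) had 84.7, 92.6 and 92.0 CPM in the Myc-deleted libraries and 70.5, 65.2 and 67.7 CPM in the controls, with no overlap. The rise was 1.32-fold (0.41 ± 0.08, edgeR adjusted p = 0.0105), and the adjusted p was 0.0552 without Myc-deleted library 2 and 0.0701 without control library 2. Its relatives did not pass (adjusted p = 0.785 for Ormdl2 and 0.805 for Ormdl1). Ormdl2 stood at 43.6 ± 2.36 CPM in Myc-deleted and 45.1 ± 2.68 CPM in control libraries, and Ormdl1 at 11.1 ± 1.25 CPM in Myc-deleted and 10.6 ± 0.359 CPM in control libraries. The 95% intervals of their log2 fold changes ran from -0.24 to 0.14 for Ormdl2 and from -0.22 to 0.36 for Ormdl1. Per kb, Ormdl3 over Ormdl2 was 1.57 to 1.58 in the Myc-deleted libraries and 1.08 to 1.23 in the controls.

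Sptssa and Sptssb encode small subunits that activate serine palmitoyltransferase and set its preference for acyl chains. Sptssa stood at 77.0 ± 1.83 CPM in Myc-deleted and 72.9 ± 5.45 CPM in control libraries (0.08 ± 0.08, adjusted p = 0.625). Sptssb, far less abundant, had 28, 19 and 21 counts in the Myc-deleted libraries and 5, 17 and 7 in the controls. Its groups did not overlap, but the difference did not pass (1.19 ± 0.42, adjusted p = 0.123), and its log2 fold change was 0.90 to 1.76 with 1 library left out. The groups were apart only by 19 against 17 counts. Sptssb passed the low-count filter only through the Myc-deleted libraries, where it was higher, so these values are no support for a rise.

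None of the 3 genes of sphingomyelin synthesis passed. Sgms2, the synthase of the plasma membrane, stood at 88.9 ± 6.24 CPM in Myc-deleted and 97.7 ± 3.92 CPM in control libraries (-0.14 ± 0.08, edgeR adjusted p = 0.364). Sgms1, the synthase of the Golgi, stood at 44.8 ± 8.76 CPM in Myc-deleted and 48.6 ± 3.49 CPM in control libraries. Samd8, a relative that makes ceramide phosphoethanolamine, stood at 36.6 ± 3.32 CPM in Myc-deleted and 34.7 ± 1.27 CPM in control libraries. The groups overlapped for all 3 genes. The 95% intervals of the log2 fold changes ran from -0.31 to 0.04, from -0.41 to 0.17 and from -0.13 to 0.28 in the same order. The 3 genes had unadjusted p of 0.122, 0.385 and 0.408 by edgeR, and none passed with DESeq2 or limma voom.

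Of the 8 genes of glycosphingolipid breakdown, 2 fell and 6 did not pass. Psap, the precursor of the saposins that present lipids to lysosomal hydrolases (ENSMUSG00000004207.14, chromosome 10, 60277627 to 60302597), had 454, 464 and 454 CPM in the Myc-deleted libraries and 542, 563 and 599 CPM in the controls. The Myc-deleted libraries lay close together and below every control. Psap was 1.24-fold lower (-0.31 ± 0.07, edgeR adjusted p = 0.0302), but it passed in 0 of the 6 leave-one-out runs, at 0.0580, 0.0870 and 0.0739 without Myc-deleted library 1, 2 or 3 and at 0.0575, 0.0958 and 0.0973 without control library 1, 2 or 3. Arsa, the sulfatase that degrades sulfatide (ENSMUSG00000022620.14, chromosome 15, 89472476 to 89477425), had 17.2, 15.9 and 13.7 CPM in the Myc-deleted libraries and 24.2, 25.8 and 20.1 CPM in the controls. It was lower in all 3 Myc-deleted libraries (-0.58 ± 0.13, adjusted p = 0.0223), with adjusted p = 0.0591 and 0.0572 without Myc-deleted library 2 or 3 and 0.0736 and 0.0986 without control library 1 or 2.

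The other 6 genes did not pass in either direction. Hexa, the alpha subunit of hexosaminidase, had 170.3, 168 and 176 CPM in the Myc-deleted libraries and 139, 156 and 141 CPM in the controls, and each Myc-deleted library lay above each control, though the difference did not pass (0.24 ± 0.07, adjusted p = 0.0874). Neu1, the lysosomal sialidase, stood at 694 ± 83.8 CPM in Myc-deleted and 665 ± 46.2 CPM in control libraries (0.06 ± 0.10, adjusted p = 0.782). Glb1, the beta-galactosidase, stood at 55.8 ± 1.11 CPM in Myc-deleted and 57.5 ± 4.82 CPM in control libraries (-0.04 ± 0.08, adjusted p = 0.808). The libraries of Neu1 and of Glb1 overlapped between the groups. Gm2a, the activator protein that hands gangliosides to hexosaminidase, stood at 14.7 ± 1.32 CPM in Myc-deleted and 18.1 ± 2.03 CPM in control libraries (-0.30 ± 0.12, adjusted p = 0.184). Gba2, a glucosylceramidase outside the lysosome, had 5.63 ± 2.13 CPM in Myc-deleted and 4.65 ± 0.927 CPM in control libraries, and Galc, the galactosylceramidase, 2.40 ± 0.167 CPM in Myc-deleted and 2.20 ± 0.485 CPM in control libraries, and neither passed (adjusted p = 0.613 and 0.839). The ratio of Psap to Hexa per kb was 1.94, 2.01 and 1.88 in the Myc-deleted libraries and 2.83, 2.64 and 3.10 in the controls.

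Levels compared per kb of exon spanned a wide range among the tested genes. Psap averaged 167 CPM per kb in Myc-deleted and 207 CPM per kb in control libraries, and Neu1 186 CPM per kb in Myc-deleted and 178 CPM per kb in control libraries, so Neu1 had the higher mean in the Myc-deleted libraries and Psap in the controls. Per kb, the ratio of Psap to Neu1 was 0.785, 1.01 and 0.920 in the Myc-deleted libraries and 1.205, 1.11 and 1.176 in the controls. Over all 6 libraries Hexa followed at 79.2, Enpp7 at 61.5 and Smpdl3a at 59.1 CPM per kb. Enpp7 averaged 91.9 CPM per kb in Myc-deleted and 31.0 CPM per kb in control libraries, and Smpdl3a 47.5 CPM per kb in Myc-deleted and 70.7 CPM per kb in control libraries, so the order of these 2 genes differed between the groups. Asah2 averaged 12.7 CPM per kb in Myc-deleted and 5.75 CPM per kb in control libraries, below Asah1 at 23.0 CPM per kb in Myc-deleted and 24.5 CPM per kb in control libraries. At the low end were Acer2 at 0.456, Acer3 at 0.410, Sphk1 at 0.379 and Galc at 0.154 CPM per kb over the 6 libraries. Merged exon length overstates the length of genes with long rare transcripts, so Asah2, Acer3 and Galc, with 11638, 15324 and 14879 bases of exon, may be placed too low.

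**Figure D5:**
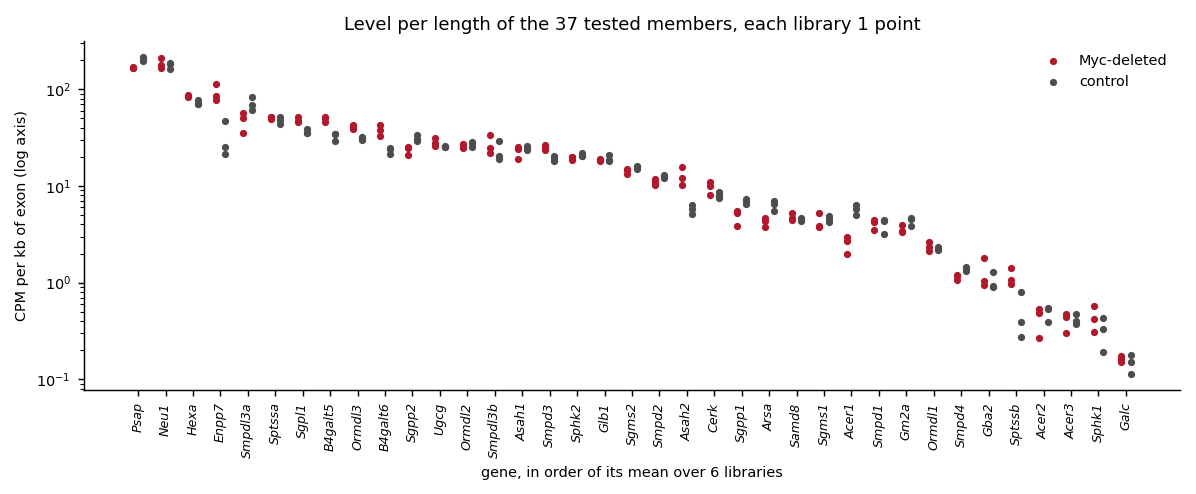
Level per kb of exon (vertical axis, log scale) of the 37 tested genes in each library, in the order of their mean, with Myc-deleted in red to the left and control in grey to the right of each tick. Psap and Neu1 are at the top and Galc at the bottom, and the colours are well apart for Enpp7, Asah2 and Acer1.

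Outside the 38 genes, 39 other genes of sphingolipid synthesis, transfer and signalling were listed, of which 33 were tested, 5 rose and 1 fell, or 18.2% called, where 4.22% of all tested genes rose, 3.73% fell and 7.95% passed in either direction. The share was 10% among the genes of ceramide synthesis, near that of all genes. These lists too were made with earlier results of these data known, so the shares are a description. Among 10 tested genes of ceramide synthesis, Cers2, a ceramide synthase, rose (218 ± 6.63 CPM in Myc-deleted and 159 ± 2.93 CPM in control libraries, log2 fold change 0.46 ± 0.07, edgeR adjusted p = 0.00359). Cers4, another ceramide synthase, had 4.21, 4.92 and 3.60 CPM in the Myc-deleted libraries and 9.24, 6.92 and 6.03 CPM in the controls. Its groups did not overlap and the difference did not pass (-0.80 ± 0.22, adjusted p = 0.0530), but it passed under upper-quartile scaling (0.0446) and with no low-count filter (0.0204), and ranged from 0.0537 to 0.172 with 1 library left out. Among 13 tested genes of lipid transfer, ganglioside synthesis and lysosomes, B4galnt1 rose, as did Naaa, an amidase related to acid ceramidase, at 29.7 ± 2.02 CPM in Myc-deleted and 18.2 ± 1.05 CPM in control libraries (log2 fold change 0.71 ± 0.10, edgeR adjusted p = 0.00251). Gla, the alpha-galactosidase of lysosomes, fell to 9.07 ± 1.24 CPM in Myc-deleted libraries, against 13.9 ± 1.15 CPM in the controls (-0.62 ± 0.14, adjusted p = 0.0263), and it lost its call without Myc-deleted library 1 or 2 (0.0624 and 0.0879) and without control library 1 or 2 (0.0852 and 0.101).

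Among 10 tested genes of sphingosine phosphate transport, receptors and downstream steps, Plpp1 and Aldh3a2 rose. Aldh3a2, which oxidises the aldehyde that the lyase Sgpl1 releases, had 204, 257 and 224 CPM in the Myc-deleted libraries and 173, 165 and 168 CPM in the controls. It rose 1.35-fold (0.44 ± 0.09, adjusted p = 0.0176), with adjusted p = 0.0689 without Myc-deleted library 2 and 0.0513, 0.0961 and 0.0602 without control library 1, 2 or 3. Plpp1, a phosphatase of lipid phosphates at the cell surface, had 29.2, 35.8 and 33.2 CPM in the Myc-deleted libraries and 21.9, 19.9 and 15.6 CPM in the controls (0.77 ± 0.13, adjusted p = 0.00732). The lyase and the dehydrogenase after it were thus both higher, while Sgpp1 and Sgpp2 were lower and Plpp1 was higher. Plpp2 and Plpp3, of the same family as Plpp1, did not pass (edgeR adjusted p = 0.712 and 0.392). Plpp2, far more abundant than Plpp1, stood at 433 ± 13.5 CPM in Myc-deleted and 416 ± 25.6 CPM in control libraries. Plpp3 stood at 20.5 ± 2.10 CPM in Myc-deleted and 18.2 ± 0.618 CPM in control libraries.

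Of the 50-base stretches in the transcripts of each called gene, 0% to 4.50% also occur in a transcript of another gene, with the highest share for Ormdl3. Exons of Smpd3 and Sgpp2 overlap those of Prmt7 and Farsb on the opposite strand, and these neighbours did not pass (adjusted p = 0.737 and 0.824). The libraries are stranded per the labels, but whether strand was used in counting is not given in the sources used here, so these 2 genes carry that uncertainty, as do Acer1 and Arsa, which also overlap a gene on the opposite strand.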

How the data were processed

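RNA of 3 Myc-deleted and 3 control intestines was prepared as stranded mRNA libraries, per the labels. The authors deposited expected counts per gene, not scaled between libraries. Cutadapt, STAR, Picard, RSEM and the build mm10 were listed, per the submitters' processing notes, with no versions. The annotation release is not given in the sources used here. Gene identifiers were matched without version to GENCODE M21 (GRCm38), which covered 99.1% of 47643 rows, 82.1% with the same version.

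Expected counts were rounded for edgeR 4.0.16 under R 4.3.3 (filterByExpr with minimum count 10 and minimum total 15, TMM, quasi-likelihood F-test, Benjamini-Hochberg adjustment over 12720 genes, threshold 0.05). Fold changes are Myc-deleted over control on the log2 scale. The SE is the size of that value divided by the root of the F statistic, and 95% intervals use the t distribution with the degrees of freedom of the fit. Levels per kb use merged exon length. At low counts the counting error limits the precision. The fit was tested on simulated data.

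All 38 genes were open to naming, with other pathway genes that passed, and markers that passed or were abundant. Cers4, Plpp2 and Plpp3 are named too, though they did not pass. Gene-pair ratios were chosen after the levels were seen. The members and lists were chosen with earlier results of these data known. Alternatives were RLE and upper-quartile scaling, TMM without ribosomal protein genes, 2 other filters, DESeq2 1.42.0, limma 3.58.1 voom, the replicate number as a block and each library left out in turn.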

Additional observations from a re-analysis of the deposited data

How the results depend on the processing

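Over 14 alternatives, 473 of 518 values of the 37 tested genes kept their direction and their side of the threshold, 28 lost a call and 4 gained one, and 13 values of genes without a call changed sign. No called gene changed sign. With 1 library left out, 229 to 503 genes were higher and 233 to 447 lower over the whole table, against 537 and 474 with all libraries, 4 to 7 of the 37 genes were higher and 1 to 4 lower, and the median log2 fold change of the 37 genes was 0.0044 to 0.063. Without 1 library 4 to 6 other pathway genes were higher and 0 to 1 lower. Upper-quartile scaling moved that median to 0.0198 and gave 2 other pathway genes lower, 449 genes higher and 591 lower. It shifted the median of all tested genes to -0.04. Without a filter on low counts 2 other pathway genes were lower, Gla and Cers4. Under these alternatives the cause was not tested.

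Numbers 1 to 3 occur in both groups, but the labels do not say that they pair animals, and the deviations of same-numbered libraries correlated at 0.03, 0.05 and 0.02. In these deviations each library matched best the library of its own number in the other group. The correlations were small and do not establish pairing. With the replicate number as a block, 552 genes were higher and 428 lower, 7 and 4 of the 37 genes, and 5 and 0 other pathway genes. Under this block Psap (adjusted p = 0.0545) and Gla (0.0510) did not pass, and no other called gene of these lists lost its call. Depth limits Sptssb, Sphk1, Acer2, Acer3, Gba2 and Galc most.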

Other observations

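Other values may merit a second look, and each was picked out after its values were seen. The ratio of Ormdl3 to Ormdl2 per kb was 1.58, 1.57 and 1.57 in Myc-deleted libraries 1 to 3 and 1.14, 1.08 and 1.23 in control libraries 1 to 3. Exons of Sphk2 overlap the opposite strand of Rpl18 and of Dbp, a clock-controlled transcription factor. Rpl18 fell to 219 CPM in Myc-deleted libraries, against 288 CPM in the controls (log2 fold change -0.40, edgeR adjusted p = 0.00892), Dbp stood at 35.9 CPM in Myc-deleted and 22.2 CPM in control libraries (adjusted p = 0.289), and Sphk2 at 81.4 and 87.6 CPM. The summed level of the 38 genes was 3745, 3727 and 3676 CPM in Myc-deleted libraries 1 to 3 and 3286, 3397 and 3516 CPM in control libraries 1 to 3.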
